A study of Mus musculus with 2 samples.

Results

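The genes described here are 10 cytochrome P450 genes of the CYP1A, CYP2A, CYP2D, CYP2E, CYP2F and CYP2J subfamilies, none of them a classic target of the pregnane X receptor (PXR). They are Cyp1a1, Cyp1a2, Cyp2a12, Cyp2d9, Cyp2d10, Cyp2d22, Cyp2d26, Cyp2e1, Cyp2f2 and Cyp2j5. They were chosen by gene symbol, and each had 1 probe set among the 15644 genes named in the deposited table. The cells were hepatocytes isolated from a male C57BL/6 mouse 9 weeks old and kept in culture for 24 h before treatment. One group then received the solvent dimethyl sulfoxide (DMSO) and the other 10 µmol/l pregnenolone 16α-carbonitrile (PCN), a steroid that activates PXR in rodents, for 12 h in both groups. Each group was 1 Affymetrix array, hybridised with labelled cRNA made from a pool of 3 RNA samples, 5 µg in total. There were therefore 2 arrays and no replicates, and the variation from culture to culture is unknown for every value below.

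Cytochrome P450 enzymes are heme proteins of the endoplasmic reticulum that insert an oxygen atom into drugs, steroids, fatty acids and pollutants, with electrons from cytochrome P450 reductase and cytochrome b5. The CYP3A, CYP2B and CYP2C genes are the usual targets of PXR and of its relative CAR. The CYP1A genes are instead controlled by the aryl hydrocarbon receptor (AhR), which binds DNA together with its partner ARNT. Cyp2d, Cyp2a12, Cyp2e1 and Cyp2f2 are expressed in the untreated liver, where transcription factors of the differentiated hepatocyte such as HNF4α and C/EBPα act on many liver P450 genes. The comparison of PCN with DMSO shows where these genes stood beside the PXR targets in the same cells.

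The labelled cell type was checked against 18 hepatocyte markers fixed for this purpose. Of the 17 with a probe set, 16 were measured, Alb standing at an intensity of 21685 with DMSO and 21383 with PCN. The tyrosine aminotransferase gene Tat, the remaining marker, was under the floor in both arrays, at 23.9 and 14.9. The floor was 5 on the log2 scale, an intensity of 32, and a gene under it in both arrays was treated as not measured. Markers of other liver cells were mostly not measured. The same held for genes in general, as 41.2% of all 15644 named genes were measured. Measured were 2 of 14 stellate cell and fibroblast markers, 3 of 14 Kupffer cell and leukocyte markers, 4 of 13 endothelial markers and 3 of 7 bile duct markers. The bile duct count was close to that share, and these counts do not show how pure the cultures were. The summed intensity over each of these lists went from 481 with DMSO to 433 with PCN, from 1849 to 1802, from 244 to 262 and from 857 to 762, and that of the hepatocyte list from 227170 to 222624. Among the measured markers, the bile duct genes Sox9, Cd24a and Krt19 differed most, by -0.42, -0.36 and 0.40 on the log2 scale. The endothelial gene Lyve1 went from 30.4 to 39.8, Eng from 30.7 to 37.1 and Stab2 from 42.1 to 37.0, all near the floor. The macrophage genes C1qb and C1qa went from 26.7 to 38.1 and from 34.9 to 30.01, and Cd68 from 1690 to 1626. The mesenchymal genes Dcn and Acta2 went from 351 to 313 and from 36.5 to 30.6. In the hepatocyte list the largest differences were -0.15 for Ahsg, -0.15 for Hp and 0.07 for Serpina1a. The part of these shifts in the P450 values was not tested. In RNA pooled from whole cultures, fewer cells that express a gene and less RNA per cell cannot be told apart.

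Of the 10 P450 genes, 8 were measured and 2, Cyp1a1 and Cyp2j5, lay under the floor in both arrays. With PCN, 4 of the 8 were higher (Cyp2e1, Cyp2f2, Cyp1a2 and Cyp2d26) and 4 lower (Cyp2a12, Cyp2d22, Cyp2d9 and Cyp2d10). Of all measured genes, 57.6% were higher, and 8 genes are too few to set apart from that share. The log2 differences of the 8, PCN minus DMSO, ran from -0.75 for Cyp2a12 to 0.32 for Cyp2e1. Their median was -0.05, beside 0.03 over all 6449 measured genes. None of the 8 differed by 2-fold or more, where 0.326% of all measured genes did. Only Cyp2a12, 1 of the 8 (12.5%), passed 1.5-fold, against 1.94% of all measured genes, and a single gene is too few to set apart from that share. The 40 bacterial and phage control probe sets above the floor, whose RNA is added to every array from outside, gave an SD of 0.10 and a range from -0.33 to 0.16 for the same log2 difference. The differences of Cyp2a12, Cyp2d22, Cyp2e1 and Cyp2f2 lay outside that range, and those of the other 4 inside it. Of all measured genes, 27.3% lay outside it, and 4 of 8 genes are too few to set apart from that share. The differences of Cyp1a2 and Cyp2d26 were smaller than the SD of these controls. These controls read a small number of added RNAs with several probe sets each, so the 40 are not independent of each other. They measure the arrays and not the cultures.

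**Figure D1:**
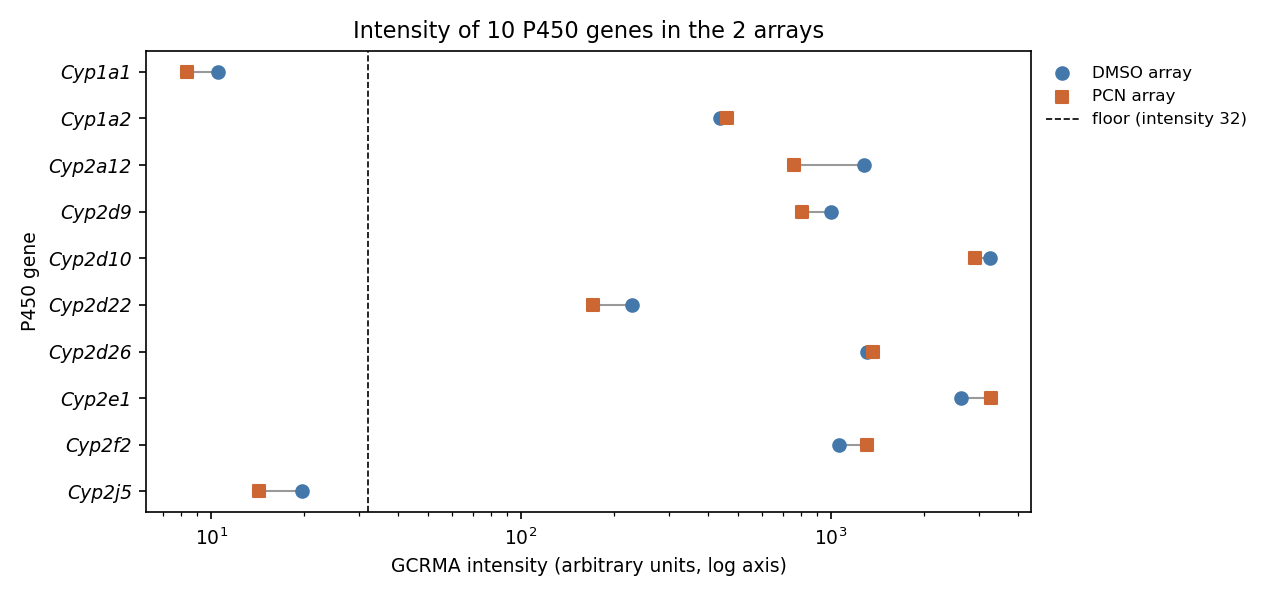
GCRMA intensity (arbitrary units, log axis) of the 10 P450 genes in the DMSO array (circles) and the PCN array (squares), 1 value per gene and array, joined by a line. Cyp1a1 and Cyp2j5 lie left of the dashed floor at 32 in both arrays, and the longest line among the other 8 is that of Cyp2a12, from 1277 to 757.

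Cyp1a1 and Cyp1a2 are the 2 genes of the CYP1A subfamily described here, neighbours on chromosome 9. Cyp1a1, the oxidase of polycyclic aromatic hydrocarbons that serves as the usual readout of AhR activity, had an intensity of 10.5 with DMSO and 8.34 with PCN. Both values were under the floor, so no difference is given. Cyp1a2, which oxidises caffeine and aromatic amines and is expressed in the liver without an inducer, had 437 with DMSO and 461 with PCN. This was a log2 difference of 0.08 (1.05-fold), smaller than the SD of the control probe sets. Of all measured genes, 39.2% were as high or higher.

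The windows just before both CYP1A start sites are shown because AhR acts on this gene pair through the xenobiotic response element, whose core letters are GCGTG. Sequences and start sites here are RefSeq's on GRCm38.p6, whose promoter table held 9 of the 10 genes, all but Cyp2d22. They run from 5′ to 3′ in the direction of the gene and end at the base before the start site. Capitals mark the letters searched, on both strands, in the 250 bases upstream of each gene: the response element core GCGTG and the TATA box core TATAA. The run TTATAA holds the latter on both strands, and positions are those of the match in the gene's direction. The Cyp1a1 stretch is chr9:57697513-57697612, plus strand, and that of Cyp1a2 is chr9:57683656-57683755, minus strand.
Cyp1a1: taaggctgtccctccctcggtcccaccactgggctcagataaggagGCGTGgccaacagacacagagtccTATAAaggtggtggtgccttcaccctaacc
Cyp1a2: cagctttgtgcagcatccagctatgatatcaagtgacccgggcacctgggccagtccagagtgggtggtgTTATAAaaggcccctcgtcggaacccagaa
The Cyp1a1 window held GCGTG once, starting 54 bases upstream, and the Cyp1a2 window did not hold it. This short core was in 28.2% of all 32851 windows of that length, and TATAA in 22.8%. Response elements farther than 250 bases upstream were not searched, so these windows do not show whether either gene has one. A match to the core is not a measured binding site. Both CYP1A windows held TATAA, which starts 30 bases upstream in Cyp1a1 and 29 in Cyp1a2, and so did 8 of the 9 windows of the genes described.

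Among 15 listed genes of the AhR pathway, 10 had a probe set and 6 were measured, 3 higher and 3 lower. Their median log2 difference was 0.02, and it turned to -0.01 when differences were centred on the median of all genes. The genes of the receptor and its partner were both measured. Ahr had 398 with DMSO and 425 with PCN (0.09 on the log2 scale), and Arnt had 37.4 and 36.3 (-0.04). Tiparp, an ADP-ribosyltransferase gene that AhR induces and that in turn restrains the receptor, went from 283 to 419, a log2 difference of 0.56. Nqo1, a quinone reductase gene shared by AhR and NRF2, went from 103 to 89.6 (-0.20), and Nfe2l2, the gene of NRF2, from 3656 to 3359 (-0.12). The other AhR targets Cyp1b1, Ahrr and Aldh3a1 were under the floor in both arrays, like Cyp1a1. Apart from the P450 genes described, Tiparp was thus the only listed AhR target that was both measured and higher with PCN. Cyp1a2 was also higher, by 0.08 on the log2 scale, which is less than the SD of the control probe sets.

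Cyp2a12, a steroid hydroxylase of mouse liver, showed the largest difference of the 8 measured genes. Its intensity was 1277 with DMSO and 757 with PCN, a log2 difference of -0.75 or 1.69-fold lower. Only 42 of the 6449 measured genes (0.651%), Cyp2a12 among them, were as low or lower. The spread of the differences varied with the level of the genes, so each P450 gene was also set beside the genes whose mean level lay within 0.5 of its own on the log2 scale. For the 720 genes at the level of Cyp2a12, the 5th and 95th percentiles of the log2 difference were -0.28 and 0.29. Cyp2a12 lay below the lower of these. Its neighbours on chromosome 7 among protein-coding genes are Cyp2a22, which had no probe set, and Cyp2f2 on the other side. Cyp2a12 and Cyp2f2 differed in direction.

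Cyp2f2, the P450 that bioactivates naphthalene and in the liver is a periportal gene, had 1061 with DMSO and 1307 with PCN. It was higher by 0.30 on the log2 scale (1.23-fold), above the 95th percentile of 0.26 for the 653 genes of like level. Cyp2e1, a pericentral P450 that oxidises ethanol and acetaminophen, had 2631 with DMSO and 3275 with PCN. Its log2 difference of 0.32 (1.24-fold) was above the 95th percentile of 0.22 for the 287 genes of like level, of which 1.39% were as high or higher. The differences of Cyp2e1 and Cyp2f2 were 0.01 apart, less than the SD of the control probe sets. These 2 genes, from opposite zones of the liver lobule, were therefore higher by nearly the same amount.

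The windows of these 3 genes are shown because they include the largest differences each way and because the adjacent genes Cyp2a12 and Cyp2f2 can be read beside each other. Here capitals mark TATAA and the letters CAAAGNNCA, the core of the direct repeat that HNF4α binds, where N is any base. The stretches are chr7:27028940-27029089, plus strand, chr7:27119805-27119954, plus strand and chr7:140763669-140763818, plus strand.
Cyp2a12: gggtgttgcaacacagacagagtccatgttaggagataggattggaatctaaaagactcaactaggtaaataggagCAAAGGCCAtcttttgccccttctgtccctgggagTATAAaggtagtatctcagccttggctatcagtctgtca
Cyp2f2: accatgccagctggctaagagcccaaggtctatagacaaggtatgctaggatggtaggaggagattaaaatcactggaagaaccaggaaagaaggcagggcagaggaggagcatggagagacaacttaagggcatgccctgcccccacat
Cyp2e1: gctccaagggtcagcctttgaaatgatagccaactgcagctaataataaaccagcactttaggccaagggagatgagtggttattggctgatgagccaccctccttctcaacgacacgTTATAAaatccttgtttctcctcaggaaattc
The Cyp2a12 window held the HNF4-type letters once, as CAAAGGCCA starting 74 bases upstream, with TATAA starting 39 bases upstream. The Cyp2e1 window held TATAA starting 31 bases upstream and no HNF4-type letters. The Cyp2f2 window held neither.

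The CYP2D subfamily was the only one here with more than 1 measured member. Its genes form a cluster on chromosome 15 in which RefSeq lists 19 CYP2D genes, 8 of them protein-coding and 11 pseudogenes, and 7 of the 19 had a probe set. All 4 CYP2D genes described were measured, 3 lower with PCN and 1 higher, with a median of -0.24 on the log2 scale and a range of 0.48 between them. That count held under each scaling tried. Of all measured genes 42.4% were lower, and 4 genes are too few to set apart from that share. Relatives in the cluster have closely similar sequences, and how far each probe set also reads its relatives is not known from these intensities.

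Cyp2d22, often named as the mouse counterpart of the human drug-metabolising enzyme CYP2D6, went from 228 with DMSO to 170 with PCN. The log2 difference was -0.42 (1.34-fold lower), below the 5th percentile of -0.35 for the 1135 genes of like level. Cyp2d9, a testosterone hydroxylase expressed mostly in male liver, went from 1003 to 805. The log2 difference was -0.32 (1.25-fold lower), and the 5th percentile at its level was -0.28 over 739 genes. Both thus lay just outside the middle of the genes of like level. Cyp2d10 went from 3259 to 2920, a log2 difference of -0.16 (1.12-fold lower), within the percentiles of -0.26 and 0.22 for the 276 genes at its level. Cyp2d26 went from 1311 to 1362, a log2 difference of 0.05 (1.04-fold higher), which is less than the SD of the control probe sets.

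In the order of the differences, Cyp2a12 was followed by Cyp2d22, Cyp2d9, Cyp2d10, Cyp2d26, Cyp1a2, Cyp2f2 and Cyp2e1. The widest gap, 0.33 on the log2 scale, lay between Cyp2a12 and Cyp2d22. Cyp2d26 and Cyp1a2, at a gap of 0.02, and Cyp2f2 and Cyp2e1 were the neighbours closer than the SD of the control probe sets. Cyp2d22 and Cyp2d9 were 0.11 apart, at the size of that SD. In all, 5 of the 8 genes lay outside the 5th to 95th percentile range of genes of like level, 3 below it (Cyp2a12, Cyp2d22 and Cyp2d9) and 2 above it (Cyp2f2 and Cyp2e1). Over all measured genes, each set beside its own genes of like level, this share was 10.0%, as the percentiles fix it to be.

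**Figure D2:**
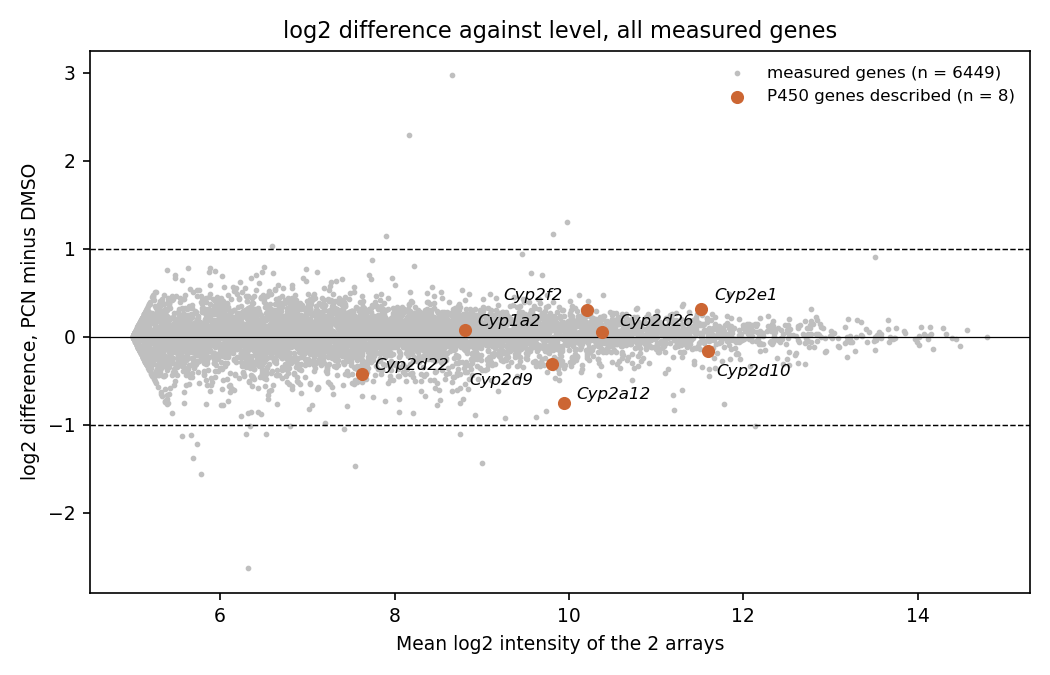
log2 difference (PCN minus DMSO) against the mean log2 intensity of both arrays for the 6449 measured genes (grey) and the 8 measured P450 genes (orange, named), with dashed lines at 2-fold. Cyp2a12 at -0.75 lies below most grey points at its level, Cyp2e1 at 0.32 and Cyp2f2 at 0.30 lie at its upper edge, and none of the 8 reaches a dashed line.

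The proximal windows of the 3 CYP2D genes in the promoter table are shown because each holds the HNF4-type letters and because Cyp2d9 and Cyp2d10 are closely alike there. Capitals mark TATAA and CAAAGNNCA. The stretches are chr15:82452257-82452376, plus strand, chr15:82407195-82407314, minus strand and chr15:82794246-82794365, minus strand.
Cyp2d9: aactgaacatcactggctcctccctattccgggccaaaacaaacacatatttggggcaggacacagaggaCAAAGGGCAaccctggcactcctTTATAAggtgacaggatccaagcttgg
Cyp2d10: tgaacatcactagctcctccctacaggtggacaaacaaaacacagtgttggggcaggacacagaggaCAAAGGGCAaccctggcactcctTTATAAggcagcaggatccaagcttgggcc
Cyp2d26: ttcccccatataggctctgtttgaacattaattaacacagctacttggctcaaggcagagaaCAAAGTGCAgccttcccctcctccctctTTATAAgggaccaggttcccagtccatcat
In a global alignment, Cyp2d9 and Cyp2d10 were identical at 83.6% of the 250 upstream bases. Cyp2d26 was identical to Cyp2d9 at 56.8% and to Cyp2d10 at 54.0%, while the other 33 pairs among the 9 genes ran from 46.0% to 53.2%. Each of the 3 windows held the HNF4-type letters once, starting 50 bases upstream in Cyp2d9, 53 in Cyp2d10 and 58 in Cyp2d26. With Cyp2a12, this made 4 of the 9 windows, against 5.49% of all windows of the same length. The 3 CYP2D genes are relatives in the same cluster, so these 4 windows are not independent of each other. Of these 4 genes, Cyp2a12, Cyp2d9 and Cyp2d10 were lower with PCN and Cyp2d26 was not, where 42.4% of all measured genes were lower. Whether the letters bear on direction was not tested, and Cyp2d22, also lower, had no window. A match in letters is not a measured binding site.

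Repeats of the kind that PXR binds were searched in the same windows as copies of AGNTCA on both strands. The copies were in the same direction with 3 (DR3) or 4 (DR4) bases between them, or pointing away from each other with 6 bases between them (ER6). These repeats were in 0.0517%, 0.103% and 0.0304% of all windows, and in 0 of the 9 windows of these genes. With shares so low, 9 windows of this length give no information on PXR binding.

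Cyp2j5, an arachidonic acid epoxygenase known from mouse kidney and liver, had 19.7 with DMSO and 14.2 with PCN, under the floor in both arrays. Its neighbour Cyp2j9 was also not measured, at 6.14 and 5.18. Of 23 further genes listed from the same and nearby subfamilies, 10 had a probe set and only Cyp2j6 and Cyp2r1 were measured. Cyp2j6 went from 109 to 113 (0.04 on the log2 scale) and Cyp2r1, a vitamin D hydroxylase, from 66.9 to 62.9 (-0.09). The other 8 had intensities of at most 6.38.

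The P450 families that PXR controls were mostly higher in the same arrays. Of 9 listed CYP3A genes, 5 had a probe set and all 4 measured ones were higher, with a median log2 difference of 0.72. Cyp3a25 went from 145 to 1134, Cyp3a11 from 8519 to 15919 and Cyp3a44 from 82.0 to 119. Of 21 listed CYP2B and CYP2C genes, 12 had a probe set and 6 were measured, 5 higher and 1 lower, with a median of 0.19. Among all measured genes 57.6% were higher, and 4 and 6 genes are too few to set apart from that share by direction. Cyp2b10, the usual CAR target, went from 25.9, under the floor, to 35.4. Cyp2c29 went from 650 to 1059, Cyp2c23 from 297 to 369 and Cyp2c37 from 209 to 246. The log2 differences of Cyp2c23 and Cyp2c37 were 0.31 and 0.24, so that Cyp2e1 and Cyp2f2 differed as much as these CYP2C genes did. The smallest CYP3A difference, that of Cyp3a13 from 1584 to 1707 (0.11), was below those of Cyp2e1 and Cyp2f2. Alas1, the first enzyme of heme synthesis, went from 884 to 1088. The genes Actb, Hprt and Tbp, often used as references, differed by 0.005, -0.07 and -0.08 on the log2 scale, with Actb turning to -0.008 under quantile normalization and -0.03 under median centring. The difference between the families was not tested, since each group had 1 array.

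**Figure D3:**
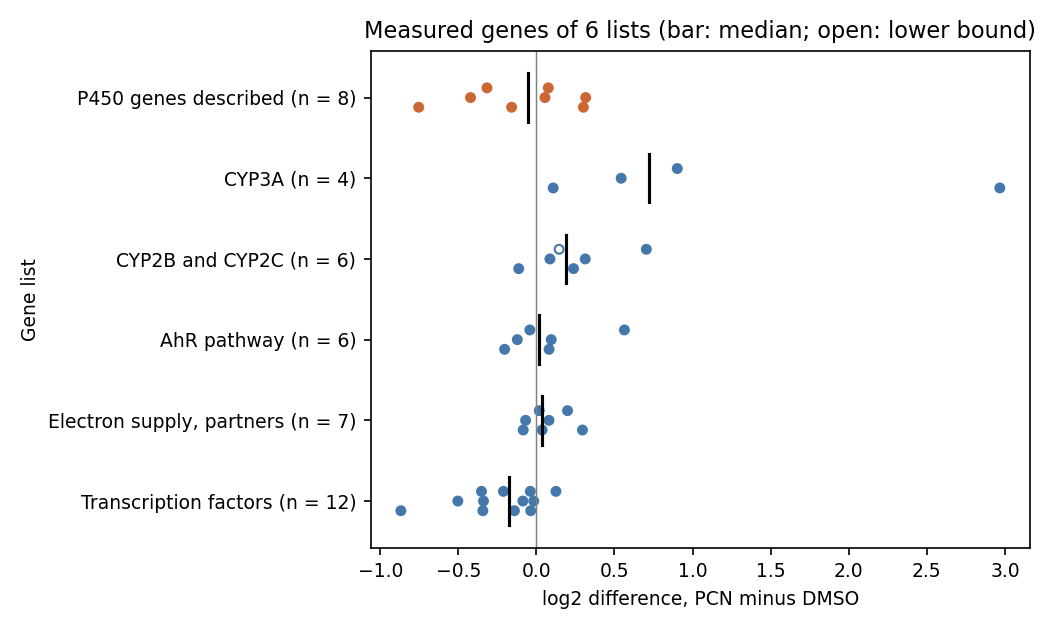
log2 difference (PCN minus DMSO) of each measured gene (points) in 6 lists, with the median of each list as a bar. An open point is a lower bound, for a gene under the floor in 1 array. The 8 P450 genes described spread on both sides of 0 from -0.75 to 0.32, the 4 CYP3A genes all lie above 0, and 11 of 12 transcription factors lie below 0.

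Of 10 listed genes that supply P450 enzymes with electrons or bind them in the membrane, 7 had a probe set and all 7 were measured, 5 higher and 2 lower, with a median of 0.04; centring on the median of all genes made this 4 higher and 3 lower. Cyb5r1, a cytochrome b5 reductase family gene, went from 174 to 213 (0.29 on the log2 scale). Cyb5a, the gene of microsomal cytochrome b5, went from 8784 to 10086 (0.20), and Cyb5r3, a cytochrome b5 reductase, from 2760 to 2603 (-0.08). The differences of Cyb5r1 and Cyb5a lay above the range of the control probe sets, and that of Cyb5r1 was close to those of Cyp2f2 and Cyp2e1. Of all measured genes, 57.6% were higher and 27.3% lay outside the range of these controls. The 7 genes are too few to set apart from either share.

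Hepatocyte transcription factors known to act on P450 genes were mostly lower with PCN. Of 21 listed genes, 19 had a probe set and 12 were measured, 1 higher and 11 lower, against 42.4% lower among all measured genes. Their median log2 difference was -0.18, and this split was the same under each scaling tried. Of the 16 measured hepatocyte markers 13 were lower, but their median log2 difference was only -0.02. Most of these markers differed by less than the SD of the control probe sets, and their split changed with the scaling. Cebpa, the gene of C/EBPα, went from 400 to 219, a log2 difference of -0.87 and the only one of the 12 past 1.5-fold, against 1.3% of all measured genes lower by that much. Ppara, the gene of a fatty acid receptor, went from 377 to 266 (-0.50), and Nr5a2, the gene of the orphan receptor LRH-1, from 169 to 132 (-0.35). Hnf4a, the gene of HNF4α, went from 529 to 457 (-0.21). Nr1i2, the gene of PXR, had 71.9 and 70.1 (-0.04), and Nr1i3, the gene of CAR, was under the floor in both arrays. Several of the lower genes, Nr1i2 among them, differed by less than the SD of the control probe sets. The difference of Hnf4a lay inside the range of those controls. Whether these levels bear on the lower P450 genes was not tested, and with 2 arrays it cannot be.

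Recomputed with 6 other choices of floor or scaling, the difference of each measured P450 gene kept its sign. The 3 choices of floor could not move these values, as all 8 genes were well above each floor. The difference of Cyp2a12 ran from -0.79 to -0.75 on the log2 scale, that of Cyp2e1 from 0.28 to 0.32 and that of Cyp2f2 from 0.26 to 0.30. Closest to 0 were Cyp2d26, from 0.02 to 0.05, and Cyp1a2, from 0.04 to 0.08. These choices do not stand in for replicate cultures.

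**Figure D4:**
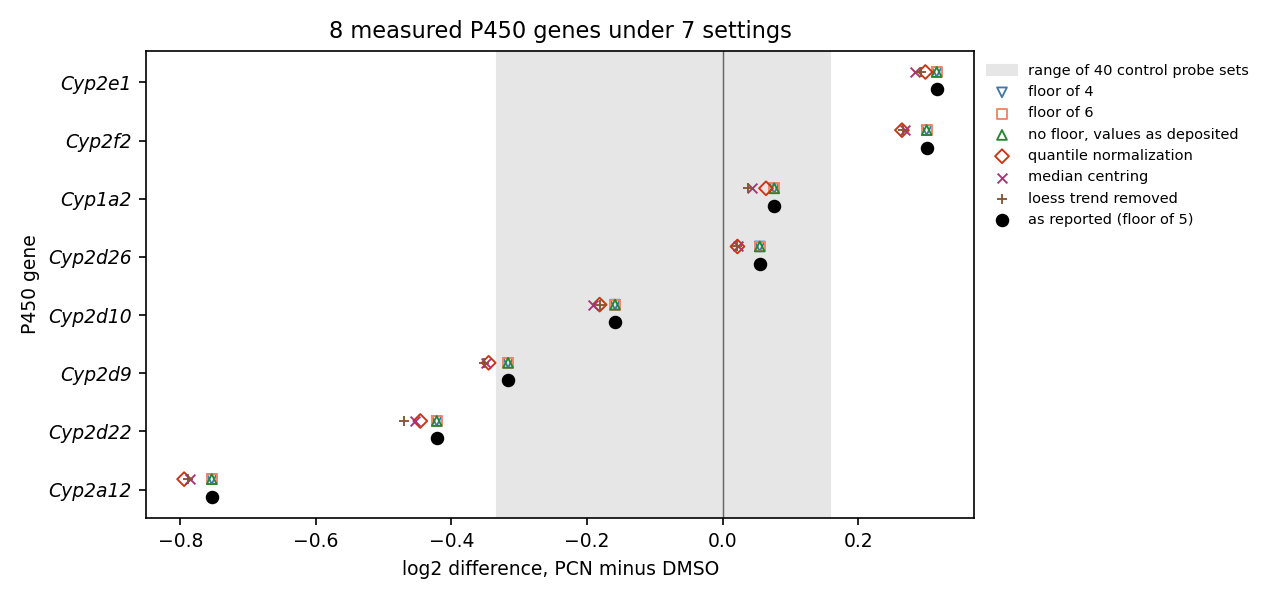
log2 difference (PCN minus DMSO) of the 8 measured P450 genes as reported (black) and with 6 other choices of floor or scaling (coloured), over the range of the 40 control probe sets (grey band, -0.33 to 0.16). Cyp2a12 and Cyp2d22 lie left of the band and Cyp2e1 and Cyp2f2 right of it in each setting. Cyp2d9, at -0.32 as reported, lies close to its left edge and under some settings past it. The band is that of the reported setting and was not recomputed under the others, so crossing its edge under another scaling is not a like comparison.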

How the data were processed

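RNA from each group was hybridised to 1 Affymetrix array with a single label. The deposited values are intensities on a linear scale; the authors used GCRMA 2.2.0, per the submitters' processing notes, which corrects background, normalizes arrays to each other and gives 1 value per probe set. The genome build behind them is not given in the sources used here. The table held 16395 probe sets, 64 of them controls and 687 unnamed here. Symbols came from the platform's probe annotation, and all 10 P450 genes had the same symbol in RefSeq. From the deposited intensities, log2 values and the difference PCN minus DMSO were computed (Python 3.11.15, numpy 2.4.6, pandas 2.3.3). A value under the floor of 5 in 1 array was raised to it. With 1 array per group no test, error or p-value was possible; fold thresholds of 2 and 1.5 served for counts, and precision is limited by having 2 arrays. The calculation was tested on simulated data with changes larger than those of the P450 genes, so that test does not bear on differences of their size. Upstream letters were searched on both strands and aligned with Biopython 1.88. Alternatives were floors of 4 and 6, no floor, quantile normalization, median centring, a loess trend (fraction 0.3, statsmodels 0.14.6) and thresholds of 1.5-fold and 3-fold. The P450 genes and all lists were chosen with earlier results of these data known. The genes named are the 10 P450 genes, the 3 of each other list that differed most among those measured, and those of a set of comparison genes chosen by name that had a probe set. Ahr, Arnt, Ahrr, Aldh3a1, Cyp1b1, Hnf4a, Cyp3a13, Cyp2j9, Alb, Tat, Glul and Ghr were named after their values were seen, as list members or neighbours.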

Additional observations from a re-analysis of the deposited data

How the results depend on the processing

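Of 48 recomputed differences of the 8 measured genes, 6 settings each, all 48 moved by less than the SD of the control probe sets and none changed sign. Of these, 24 were identical to the reported value, because the floors do not touch genes this bright, so only the 3 scalings could move them, by at most 0.05 on the log2 scale. The count at least 2-fold apart was 0 in every setting and at a threshold of 3-fold, and 1 (Cyp2a12) at a threshold of 1.5-fold. The median over the measured genes was -0.16 with a floor of 4, which adds Cyp2j5, and -0.24 with no floor, which adds Cyp1a1 as well, both of them dim genes. No scaling moved the median of all genes by more than 0.1 on the log2 scale. Leaving out a replicate would have emptied a group. No paired analysis was possible because the groups hold a single array each. Cyp1a1 and Cyp2j5 are limited by their signal near background.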

Other observations

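Zone genes of the liver lobule give the setting of Cyp2e1 and Cyp1a2, both pericentral, and of periportal Cyp2f2. Of 20 other pericentral genes listed, 19 had a probe set and 8 were measured, 3 higher and 5 lower, with a median log2 difference of -0.04. Lect2, a secreted hepatocyte protein, went from 464 with DMSO to 647 with PCN, Rgn, the gene of regucalcin, from 345 to 452, and Gulo, the last enzyme of vitamin C synthesis, from 138 to 101. Glul, glutamine synthetase, had 511 and 465. Of 20 other periportal genes listed, 15 had a probe set and 9 were measured, 3 higher and 6 lower, with a median of -0.10. Arg1, the arginase gene, went from 1146 to 638, Ftcd, a histidine-degrading enzyme, from 1745 to 1359, and Igfals, which binds IGF complexes in plasma, from 152 to 195. Among all measured genes 42.4% were lower, and with 8 and 9 measured genes neither list can be set apart from that share.

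Cyp2d9 is a male-biased gene that depends on pulsed growth hormone in the intact animal. Of 26 listed male-biased or growth hormone genes, 20 had a probe set and 13 were measured. Of the 13, 4 were higher and 9 lower (3 and 10 with median centring), with a median log2 difference of -0.02. Among all measured genes 42.4% were lower. Cyp4a12a, a male-biased fatty acid hydroxylase, went from 133 to 99.4, a difference of -0.42 on the log2 scale, and Serpina12, a serpin gene, from 263 to 202 (-0.38). Igf1, the growth factor gene downstream of the hormone, went from 1584 to 1838 (0.21). Ghr, the gene of the hormone's receptor, had 637 and 632. Several of the lower genes, Ghr among them, differed by less than the SD of the control probe sets. Each of these is a value of 1 array per group, and no difference was tested.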
